A study of Mus musculus with 36 samples.

Results

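The extracellular matrix holds, besides collagens, a set of secreted glycoproteins and proteoglycans that cells bind, cross-link and remodel. RNA of 10 such genes was followed here in mouse prostate cancer cells: Fn1, Bgn, Dcn, Sparc, Thbs1, Thbs2, Tnc, Fbn1, Postn and Lox. They were taken by symbol from the 46078 genes of the deposited tables, and each symbol was found once. The set was chosen by the levels of Fn1 and Bgn, which had been seen to move in opposite directions. Fn1 and Bgn values in cancer cells are therefore given as a description, as log2 fold changes with standard errors and without a test. In cancer cells 8 of the 10 genes passed the filter on low counts. Of these, 6 were tested (Dcn, Sparc, Thbs1, Thbs2, Tnc and Fbn1), while Postn and Lox had no reads to test.

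The cancer cells were RM-1-BM, a mouse prostate cancer line transduced with either the F133V mutant of SPOP or an empty vector (EV), and the macrophages were the mouse line RAW264.7. SPOP is the substrate adaptor of a ubiquitin ligase and is often mutated in human prostate cancer. Cancer cells grew alone or in transwell coculture, sharing medium with macrophages across a membrane, and were given either the PARP inhibitor olaparib or DMSO as vehicle. That made 8 cancer groups: F133V alone with olaparib, F133V alone with DMSO, F133V in coculture with olaparib, F133V in coculture with DMSO, and the same 4 conditions of vector cells. The 4 macrophage groups came from cocultures with F133V or vector cells, with olaparib or DMSO, and no macrophages grown alone were analysed here. Each of the 12 groups had 3 libraries. The labels do not say whether these came from separate cultures, or whether the transduced lines were pools or clones, so the p-values reflect the spread among libraries, which may be technical. Between the genotypes, the mutant and any other difference of the transduced lines cannot be told apart.

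Fibronectin (Fn1) is the main adhesive glycoprotein of provisional matrix and is bound by integrins. Biglycan (Bgn) and decorin (Dcn) are small leucine-rich proteoglycans that bind collagen fibrils, and biglycan can also signal through Toll-like receptors. Sparc, the thrombospondins (Thbs1, Thbs2), tenascin C (Tnc) and periostin (Postn) are matricellular proteins, which modulate adhesion and growth factor access more than they carry load. Fibrillin 1 (Fbn1) builds microfibrils that store latent TGF-beta, and lysyl oxidase (Lox) cross-links collagen and elastin. In carcinomas much of this matrix is made by fibroblasts, and tumour cells that make it themselves are often mesenchymal in type.

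The sequences around 3 gene starts are shown, for Bgn and Sparc, which were both higher in F133V cells when grown alone, and for Thbs2, which was lower there. Each runs from 250 bases before to 50 bases after the start in RefSeq on GRCm38.p6. The set of promoter sequences used here held 6 of the 10 genes. Capitals mark matches to 3 motifs, sought on both strands. The TATA box was searched as TATAAA and the CCAAT box as the letters of its name, while the GC box was searched as GGGCGG.
Bgn, chrX:73483351-73483650, plus strand: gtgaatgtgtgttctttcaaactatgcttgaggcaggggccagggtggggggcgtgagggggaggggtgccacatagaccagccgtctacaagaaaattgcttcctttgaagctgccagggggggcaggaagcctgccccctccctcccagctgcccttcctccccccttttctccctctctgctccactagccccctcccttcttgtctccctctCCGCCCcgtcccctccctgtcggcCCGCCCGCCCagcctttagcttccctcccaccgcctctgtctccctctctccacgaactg
Sparc, chr11:55420031-55420330, minus strand: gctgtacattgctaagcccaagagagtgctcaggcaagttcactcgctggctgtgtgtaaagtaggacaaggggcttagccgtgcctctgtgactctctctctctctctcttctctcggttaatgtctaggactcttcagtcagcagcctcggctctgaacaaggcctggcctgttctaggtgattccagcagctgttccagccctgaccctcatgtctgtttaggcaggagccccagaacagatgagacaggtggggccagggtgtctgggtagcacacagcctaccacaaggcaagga
Thbs2, chr17:14694213-14694512, minus strand: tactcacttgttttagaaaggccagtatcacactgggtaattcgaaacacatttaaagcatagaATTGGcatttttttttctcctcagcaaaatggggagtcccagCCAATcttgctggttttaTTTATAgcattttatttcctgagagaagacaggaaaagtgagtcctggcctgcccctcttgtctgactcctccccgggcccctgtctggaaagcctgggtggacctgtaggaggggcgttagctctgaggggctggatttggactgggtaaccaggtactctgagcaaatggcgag
The Bgn stretch, 63.7% G and C, held 3 GC boxes, which 35.7% of 32851 promoters of this length hold at least once. Thbs2 held 1 match to the TATA letters, which 13.6% of promoters hold. It lay at −126 from the start, on the strand opposite to that shown, and whether it works as a TATA box was not tested. Thbs2 also held 2 CCAAT boxes, present in 37.4%. Of the GC boxes of Bgn, 2 overlap each other. None of the 8 motifs sought was in the Sparc stretch. The other 5 were TGACGTCA (cyclic AMP response element), TGANTCA (AP-1), TGACNNNGC (antioxidant response element core), ACGTG (hypoxia response element core) and GGAATG (TEAD). None of them was in the Bgn or Thbs2 stretch, and 1.8%, 7.8%, 12.4%, 19.6% and 14.7% of promoters hold them.

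In GENCODE M21 on GRCm38, Fn1 (ENSMUSG00000026193) spans 71585520 to 71653200 of chromosome 1 and Bgn (ENSMUSG00000031375) 73483602 to 73495933 of chromosome X. Sparc (ENSMUSG00000018593) lies on chromosome 11 from 55394500 to 55423183, and the RefSeq start shown above lies inside that span. Thbs1 (ENSMUSG00000040152) lies on chromosome 2 from 118111876 to 118127133 and Thbs2 (ENSMUSG00000023885) on chromosome 17 from 14665500 to 14694235. Dcn (ENSMUSG00000019929) lies on chromosome 10 from 97479609 to 97518143, Tnc (ENSMUSG00000028364) on chromosome 4 from 63959785 to 64047015 and Fbn1 (ENSMUSG00000027204) on chromosome 2 from 125300594 to 125507993. Exons of Gm9913, on the other strand, cover 20.14% of the exon bases of Fbn1, and antisense genes cover 2.5% of Fn1, 3.42% of Thbs1 and 2.26% of Tnc. The strand setting of the counting is not stated, so reads of these genes and of their partners cannot be told apart.

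Gene counts per library ranged from 30292309 to 43062440. Levels are CPM, counts per 1000000 gene counts, scaled with TMM, which corrects for differences in RNA composition. RNA composition differed between these lines. Gm26917 is an RNA gene known from earlier results to differ. It took 3.84% of gene counts in F133V cells alone with DMSO and 0.2% in vector cells. The share was 3.56% in F133V and 0.261% in vector coculture with DMSO. With olaparib it was 1.43% in F133V and 0.164% in vector cells alone, and 0.487% in F133V and 0.185% in vector coculture. TMM factors were 0.989 to 0.991 in F133V cells alone with DMSO and 0.849 to 0.866 in F133V coculture with DMSO. The part of Gm26917 in the scaling and in the results below was not tested. The mouse gene Spop averaged between 96.8 and 113.9 CPM in the 4 F133V groups and between 111 and 125 CPM in the 4 vector groups. It was thus not in excess in F133V cells. Whether reads of the transduced SPOP are counted under it is not known here, and gene counts do not show the mutation. By the number of markers detected, the cancer cells were mesenchymal more than prostate epithelial. In each cancer group 7 or 8 of 12 mesenchymal and fibroblast markers reached 1 CPM, against 2 or 3 of 11 epithelial and prostate markers. Cdh2 had no reads in any cancer group, and Thy1 had reads only in vector cells alone with DMSO. The mesenchymal markers summed to 1017 to 2322 CPM in cancer libraries. In macrophages 2 of the 12 reached 1 CPM, yet the sum was 1200 to 2621 CPM, so the sum does not set the cancer cells apart. The summed epithelial markers stood at 366 to 394 CPM in F133V coculture with DMSO and at 120.0 to 125 CPM in vector coculture with DMSO, and at 64.9 to 182 CPM in the other 6 groups. The 15 macrophage markers summed to 11.1 to 22.4 CPM in cancer libraries and to 11884 to 13940 CPM in macrophages, and 2 to 4 of them reached 1 CPM in cancer groups, against 12 in macrophage groups. C1qa, C1qb and C1qc were at 0 in cancer cells but averaged at most 0.0625 CPM in these macrophages too, so they say little about macrophage RNA here. Among cancer libraries Lyz2, a lysozyme abundant in macrophages, stood out at 3.38 and 4.36 CPM in vector replicates 1 and 2, alone with DMSO, against 0.699 CPM in replicate 3, and leaving both out changed none of the 5 counts of called genes that use this group.

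By read counts, fibronectin led the matrix transcripts of these cells, and its long exons add to its counts. Per kilobase of exon, F133V cells alone with DMSO held 184 CPM of Fn1, 112 of Bgn, 69.8 of Sparc and 45.6 of Thbs2. Vector cells alone with DMSO held 693 CPM of Fn1 and, next, 80.0 of Thbs2. The 10 genes together took 0.346% of gene counts in F133V cells and 0.964% in vector cells, alone with DMSO, and 0.195% against 0.536% in coculture with DMSO. F133V cells had less Fn1, Dcn, Thbs1, Thbs2 and Tnc and more Bgn, Sparc and Fbn1 than vector cells when grown alone. In F133V cells coculture with macrophages in DMSO lowered 5 of the 6 tested genes, where 70.3% of all genes were called and 34.8% were lower. Olaparib in coculture raised 5 of the 6 against its DMSO control, where 76.3% were called and 39.3% were higher. The number called, 5 of 6, is near the shares called, while all 5 moved in the same direction in each contrast. Whether these genes, chosen with earlier results known, share a direction more than others was not tested. Vector cells differed in pattern: coculture with DMSO raised Sparc, Thbs1, Fbn1 and Dcn and lowered Thbs2 and Tnc. Between genotypes the genes moved in both directions in each of the 4 conditions.

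**Figure D1:**
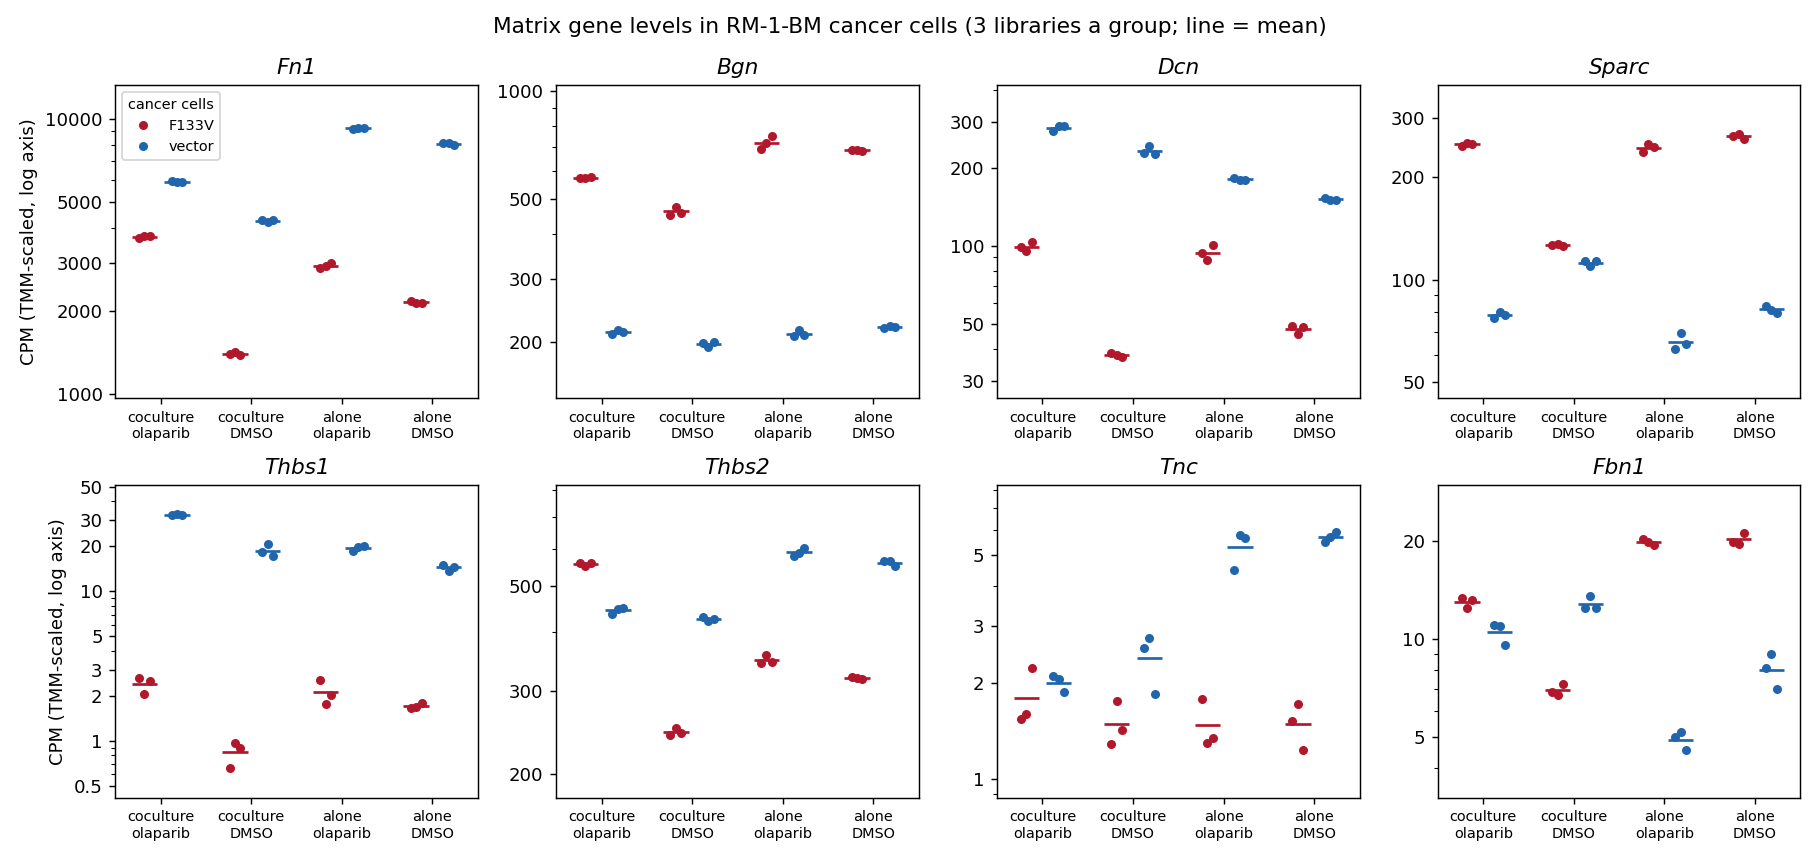
CPM (log axis, TMM-scaled) of the 8 matrix genes with reads in each of 24 cancer libraries, F133V in red and vector in blue; the line is the mean of 3 libraries. Fn1, Dcn and Thbs1 lay lower in F133V than in vector cells in all 4 conditions, Bgn lay higher in all 4, and Thbs2 and Fbn1 changed order between conditions.

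Fibronectin was the most abundant of the set and the levels below describe the pattern for which it was picked. Alone with DMSO, Fn1 stood at 2171, 2148 and 2142 CPM in F133V cells, against 8153, 8131 and 7998 CPM in vector cells (−1.91 ± 0.02 log2 fold change). With olaparib the cells alone held 2865, 2929 and 2988 CPM in F133V and 9148, 9281 and 9268 CPM in vector cells (−1.66 ± 0.02). No library of one genotype reached the range of the other. Facing macrophages with DMSO, F133V cells had 1395, 1420.1 and 1382 CPM and vector cells 4274, 4209 and 4272 CPM (−1.6 ± 0.02). Coculture with olaparib gave 3701, 3758 and 3739.6 CPM in F133V and 5936, 5903 and 5883 CPM in vector cells (−0.66 ± 0.02), the narrowest of the 4 gaps. All 8 groups were separate in Fn1, and from the highest group mean (vector alone with olaparib) to the lowest (F133V coculture with DMSO) it differed 6.6-fold.

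Fn1 was lower in coculture than alone in vector cells with either treatment, with log2 fold changes of −0.93 ± 0.02 with DMSO and −0.64 ± 0.02 with olaparib. F133V cells showed −0.62 ± 0.02 with DMSO but 0.35 ± 0.02 with olaparib, so the sign of the coculture difference turned with the drug. Olaparib gave higher Fn1 in all 4 backgrounds, most in F133V coculture (1.42 ± 0.02) and least in vector cells alone (0.19 ± 0.02). The values for vector coculture (0.47 ± 0.02) and F133V cells alone (0.44 ± 0.02) were close, and their order turned with scaling by library size alone (0.477 and 0.516).

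Biglycan ran the other way between the genotypes. Alone with DMSO, Bgn stood at 685, 686 and 681 CPM in F133V and 219, 222 and 220.1 CPM in vector cells (1.63 ± 0.03), and with olaparib at 690.4, 716 and 748 CPM in F133V and 208, 216 and 209.7 CPM in vector cells (1.77 ± 0.03). With DMSO in coculture the values were 453, 477 and 458 CPM in F133V and 199, 195 and 199.97 CPM in vector cells (1.23 ± 0.03). Coculture with olaparib gave 572, 572 and 576 CPM in F133V and 210.3, 216 and 213 CPM in vector cells (1.43 ± 0.03). Every F133V library lay above every vector library. Vector cells held Bgn within a narrow band, in which the libraries of olaparib alone and olaparib coculture overlapped. In F133V cells coculture gave lower Bgn with DMSO (−0.56 ± 0.02) and with olaparib (−0.33 ± 0.02), and olaparib gave higher Bgn in coculture (0.31 ± 0.02). The last value was 0.516 with scaling by library size alone and 0.186 with gene length and GC trends removed.

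Set against each other per kilobase of exon, Fn1 exceeded Bgn 1.64-fold in F133V and 19.2-fold in vector cells alone with DMSO, and 2.13-fold in F133V against 22.8-fold in vector cells alone with olaparib. The ratio was 1.58 in F133V and 11.2 in vector coculture with DMSO, and 3.4 in F133V and 14.5 in vector coculture with olaparib. Per kilobase, Fn1 held 184 CPM in F133V and 693 CPM in vector cells alone with DMSO, and Bgn 112 CPM in F133V and 36.1 CPM in vector cells. Coculture, and olaparib in coculture, moved F133V libraries along both axes. Olaparib in F133V cells alone moved them mainly along the Fn1 axis (Bgn 0.07 ± 0.02, Fn1 0.44 ± 0.02). Vector libraries moved along the Fn1 axis at nearly constant Bgn (log2 fold changes from −0.16 to 0.11).

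**Figure D2:**
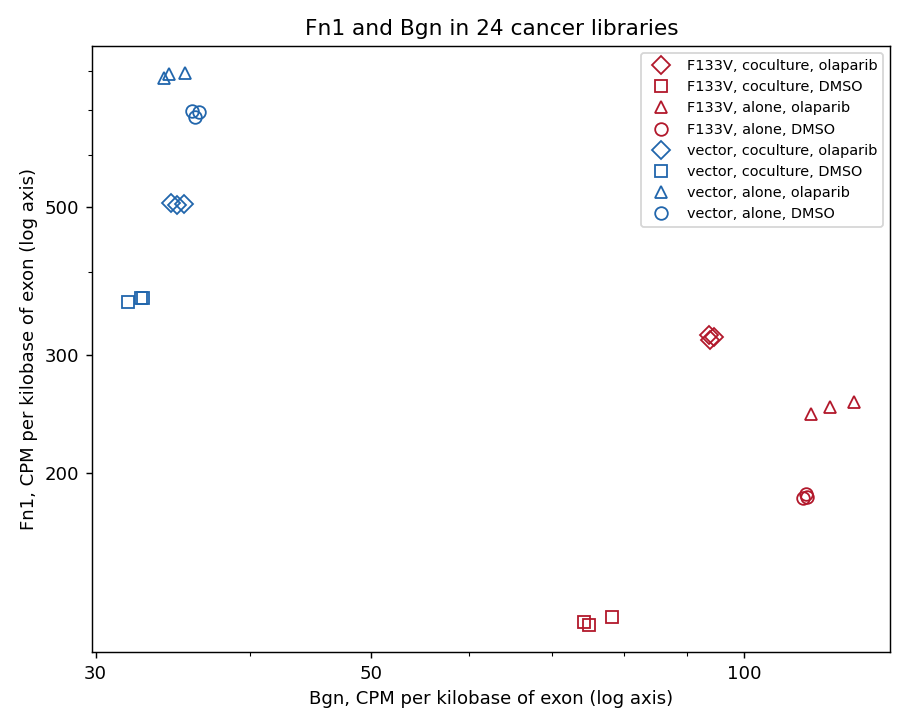
Fn1 against Bgn, in CPM per kilobase of exon on log axes, for 24 cancer libraries; colour gives the genotype and the marker shape the culture and drug. F133V libraries (Fn1 near 184 and Bgn near 112 alone with DMSO) and vector libraries (near 693 and 36.1) form separate clouds, and vector libraries stack in a vertical line.

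Decorin, the other small proteoglycan of the set, followed fibronectin rather than biglycan between genotypes. Dcn stood at 48.9, 45.5 and 48.3 CPM in F133V and 153, 149.98 and 151 CPM in vector cells alone with DMSO (log2 fold change −1.67 ± 0.04, edgeR adjusted p = 7.5e-32). It fell in DMSO coculture to 38.5, 37.6 and 37.1 CPM in F133V cells, against 228, 242 and 226 CPM in vector cells (−2.62 ± 0.04, edgeR adjusted p = 4.7e-38). This was the widest Dcn gap of the 4 conditions. With olaparib F133V cells held 93.9 ± 6.05 CPM alone and 99 ± 3.74 CPM in coculture, and vector cells 181 ± 1.89 and 286 ± 7.16 CPM (SD, n = 3 each). Olaparib thus raised Dcn in F133V coculture by 1.39 ± 0.04, edgeR adjusted p = 2.0e-28, and in vector coculture by 0.30 ± 0.03, edgeR adjusted p = 5.4e-10. The difference between these responses, an interaction (the log2 change in F133V cells minus that in vector cells), was 1.09 ± 0.05, edgeR adjusted p = 3.9e-21. With DMSO, coculture lowered Dcn in F133V cells (−0.33 ± 0.04, edgeR adjusted p = 1.2e-08) and raised it in vector cells (0.62 ± 0.03, edgeR adjusted p = 7.1e-19). The F133V value was −0.541 with scaling by library size alone.

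Sparc, a collagen-binding matricellular glycoprotein, was higher in F133V than in vector cells in 3 conditions, while its direction in coculture with DMSO depended on the scaling. Alone with DMSO it stood at 266, 268 and 260.1 CPM in F133V and 83.8, 81.5 and 79.8 CPM in vector cells (1.7 ± 0.03, edgeR adjusted p = 9.8e-36). Coculture with DMSO brought the genotypes together, at 127, 127 and 126 CPM in F133V and 113, 109.7 and 113 CPM in vector cells (0.17 ± 0.03, edgeR adjusted p = 1.1e-06). The direction of this difference depends on the scaling: it was called lower (−0.078, edgeR adjusted p = 0.014) when libraries were scaled by size alone, which moved the all-gene median by −0.252, and higher (0.418) with gene length and GC trends removed. In coculture with olaparib F133V cells had 248, 252 and 251 CPM and vector cells 76.8, 80.0 and 78.6 CPM (1.68 ± 0.03, edgeR adjusted p = 4.9e-35). Coculture with DMSO lowered Sparc in F133V cells (−1.06 ± 0.03, edgeR adjusted p = 3.9e-29) and raised it in vector cells (0.46 ± 0.03, edgeR adjusted p = 7.0e-16), an interaction of −1.52 ± 0.04, edgeR adjusted p = 3.8e-28. Olaparib likewise acted in opposite directions in coculture: it raised Sparc in F133V cells (0.99 ± 0.03, edgeR adjusted p = 1.5e-28) and lowered it in vector cells (−0.51 ± 0.03, edgeR adjusted p = 1.4e-16). That interaction was 1.5 ± 0.04, edgeR adjusted p = 2.2e-28.

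Thrombospondin 1, a matricellular inhibitor of angiogenesis that binds CD47 and can activate latent TGF-beta, showed the widest range. Thbs1 stood at 1.67, 1.69 and 1.79 CPM in F133V and 14.9, 13.8 and 14.7 CPM in vector cells alone with DMSO (−3.07 ± 0.10, edgeR adjusted p = 6.5e-26). In coculture with DMSO it was at 0.658, 0.974 and 0.89 CPM in F133V cells, from 22 reads in the poorest library, against 18.3, 20.7 and 17.4 CPM in vector cells (−4.48 ± 0.12, edgeR adjusted p = 7.9e-30). Coculture with olaparib held 2.63, 2.07 and 2.51 CPM in F133V and 32.7, 32.8 and 32.3 CPM in vector cells (−3.76 ± 0.08, edgeR adjusted p = 1.9e-31). From the highest group mean (vector coculture with olaparib) to the lowest (F133V coculture with DMSO) it differed 38.8-fold. Under DMSO, Thbs1 fell with coculture in F133V cells (−1.03 ± 0.19, edgeR adjusted p = 1.2e-05) and rose with it in vector cells (0.38 ± 0.07, edgeR adjusted p = 7.5e-06), and the interaction was −1.41 ± 0.20, edgeR adjusted p = 1.2e-07. Olaparib raised it in F133V coculture (1.51 ± 0.17, edgeR adjusted p = 5.8e-10) and in vector coculture (0.79 ± 0.06, edgeR adjusted p = 2.4e-13). In F133V cells alone the olaparib difference was 0.31 ± 0.15, edgeR adjusted p = 0.11, and it passed the threshold (0.43, edgeR adjusted p = 0.037) without F133V alone olaparib replicate 2.

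Its relative thrombospondin 2, also anti-angiogenic, was expressed at much higher levels and changed less. Alone with DMSO, Thbs2 stood at 321, 319.98 and 317 CPM in F133V and 565, 565 and 552 CPM in vector cells (−0.81 ± 0.02, edgeR adjusted p = 3.9e-29). In coculture with DMSO F133V cells held 242, 250.002 and 244 CPM and vector cells 429.6, 423 and 426 CPM (−0.80 ± 0.02, edgeR adjusted p = 5.2e-29). Olaparib in coculture turned the order, with 560.4, 551 and 559 CPM in F133V and 436, 447 and 449.7 CPM in vector cells (0.33 ± 0.02, edgeR adjusted p = 1.9e-16). Coculture with DMSO lowered Thbs2 in both genotypes, −0.38 ± 0.02, edgeR adjusted p = 3.3e-18 in F133V (−0.591 with scaling by library size alone) and −0.40 ± 0.02, edgeR adjusted p = 2.2e-18 in vector cells. The interaction was 0.01 ± 0.03, edgeR adjusted p = 0.71, and it was −0.15 (edgeR adjusted p = 8.6e-05) with scaling by library size alone and 0.066 (edgeR adjusted p = 0.04) with gene length and GC trends removed. Olaparib in coculture raised Thbs2 in F133V cells (1.18 ± 0.02, edgeR adjusted p = 2.3e-34), while the rise in vector cells was 0.06 ± 0.02, edgeR adjusted p = 0.033. The call for vector coculture was lost without replicate 2 or 3 of the DMSO group (0.055 and 0.062, edgeR adjusted p = 0.12 and 0.072) or of the olaparib group (0.057 and 0.053, edgeR adjusted p = 0.11 and 0.14). That for vector cells alone (0.08 ± 0.02, edgeR adjusted p = 4.5e-03) was at 0.06 (edgeR adjusted p = 0.050) without olaparib replicate 3.

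Tenascin C, an anti-adhesive glycoprotein of embryonic and tumour matrix, was scarce. Tnc stood at 1.52, 1.72 and 1.23 CPM in F133V and 5.5, 5.71 and 5.91 CPM in vector cells alone with DMSO (−1.93 ± 0.15, edgeR adjusted p = 2.9e-14), with 40 to 61 reads in the poorest library of each F133V group. The DMSO cocultures held 1.29, 1.75 and 1.42 CPM in F133V and 2.57, 2.75 and 1.85 CPM in vector cells (−0.69 ± 0.18, edgeR adjusted p = 6.2e-04). Coculture lowered Tnc in vector cells (−1.24 ± 0.14, edgeR adjusted p = 8.7e-10), while F133V cells showed 0.00 ± 0.20, edgeR adjusted p = 0.99. The interaction was 1.24 ± 0.24, edgeR adjusted p = 2.5e-05. In coculture with olaparib the genotypes overlapped, at 1.54, 1.6 and 2.22 CPM in F133V and 2.09, 2.05 and 1.87 CPM in vector cells (−0.17 ± 0.17, edgeR adjusted p = 0.42). Olaparib left no called difference in any of the 4 backgrounds, although F133V coculture passed the threshold (0.462, edgeR adjusted p = 0.022) with scaling by library size alone.

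Fibrillin 1, the microfibril protein, changed sign between the genotypes with culture. Fbn1 stood at 19.8, 19.6 and 21.2 CPM in F133V and 8.15, 8.96 and 7.02 CPM in vector cells alone with DMSO (1.32 ± 0.07, edgeR adjusted p = 1.0e-19). In coculture with DMSO it fell to 6.88, 6.71 and 7.26 CPM in F133V cells, against 12.4, 13.5 and 12.5 CPM in vector cells (−0.89 ± 0.08, edgeR adjusted p = 2.8e-13). With olaparib in coculture F133V cells held 13.4, 12.4 and 13.2 CPM and vector cells 11, 11 and 9.59 CPM (0.30 ± 0.07, edgeR adjusted p = 2.6e-04). Without drug, coculture lowered Fbn1 in F133V cells (−1.54 ± 0.07, edgeR adjusted p = 6.1e-21) and raised it in vector cells (0.67 ± 0.07, edgeR adjusted p = 5.9e-10), and this interaction (−2.21 ± 0.10, edgeR adjusted p = 8.6e-21) was larger in size than those of the other 5 tested genes. Olaparib raised Fbn1 in F133V coculture (0.90 ± 0.08, edgeR adjusted p = 1.6e-13) and lowered it in vector coculture (−0.29 ± 0.07, edgeR adjusted p = 1.9e-03), giving an interaction of 1.19 ± 0.10, edgeR adjusted p = 5.8e-13. Cells alone responded otherwise, with −0.03 ± 0.06, edgeR adjusted p = 0.8 in F133V and −0.72 ± 0.09, edgeR adjusted p = 9.0e-09 in vector cells.

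Periostin and lysyl oxidase were not detected in the cancer cells. Each had 0 reads in all 24 libraries, over 900383482 gene counts in total, which allows a level of up to 0.0697 to 0.0936 CPM per library when 3 counts are taken as the limit. Limits of this kind cover counting error only. In the 12 macrophage libraries (416166583 gene counts) Postn had 3 reads in 3 libraries and Lox had none.

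**Figure D3:**
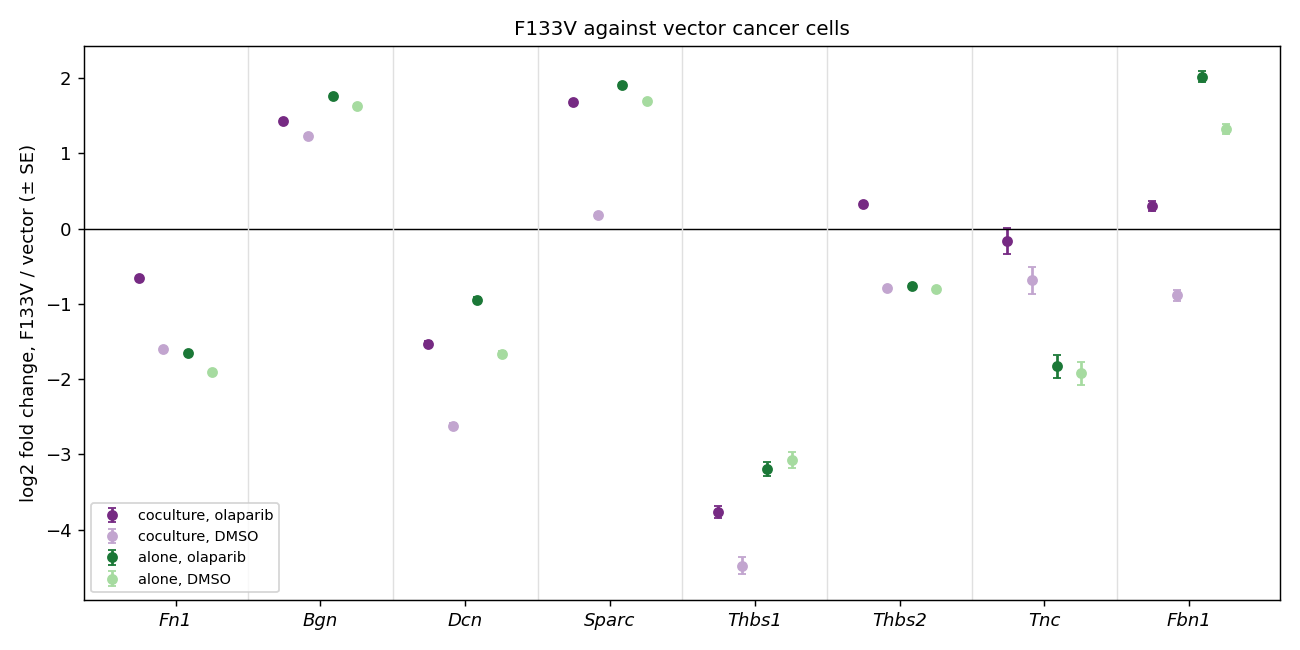
Log2 fold change of F133V against vector cancer cells (± SE, edgeR) for 8 matrix genes in 4 conditions; 0 means no difference. Fn1, Dcn and Thbs1 lie below 0 and Bgn above 0 in all 4 conditions, and Thbs2 and Fbn1 cross 0.

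Between genotypes, all 6 tested genes were called in 3 of the 4 conditions, against a background in which most genes were called. Alone with DMSO, Sparc and Fbn1 were higher and Dcn, Thbs1, Thbs2 and Tnc lower, over 15962 genes tested (67.7% of genes called, 33.7% higher and 34% lower). Alone with olaparib the same 2 were higher and the same 4 lower (67.4% of genes called, 34.3% higher and 33.2% lower). In coculture with DMSO Sparc was higher (called lower with scaling by library size alone) and the other 5 lower (79.5% of genes called, 37.4% higher and 42% lower). In coculture with olaparib Sparc, Thbs2 and Fbn1 were higher, Dcn and Thbs1 lower, and Tnc not called (60% of genes called, 28.8% higher and 31.2% lower). With such shares, a count of calls among 6 genes near the background is no result about these genes, and the size and sign of each change carry the description. The 4 contrasts use different libraries and each genotype's libraries also enter the contrasts of drug and culture.

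Coculture with DMSO lowered 5 of the 6 tested genes in F133V cells and raised none (70.3% of genes called, 35.6% higher and 34.8% lower). Tnc was the one not called. In vector cells 4 were higher and 2 lower (42% of genes called, 23.4% higher and 18.6% lower). With olaparib present, coculture raised Thbs2 (0.68 ± 0.02, edgeR adjusted p = 4.2e-26) and lowered Fbn1 (−0.61 ± 0.06, edgeR adjusted p = 1.3e-10) in F133V cells, 2 of 6 (53.2% of genes called, 26.7% higher and 26.5% lower). Dcn at 0.08 ± 0.04, edgeR adjusted p = 0.063 missed the threshold and passed it without olaparib replicate 3 of the F133V cells alone (0.125, edgeR adjusted p = 0.0021) or replicate 2 of the coculture (0.102, edgeR adjusted p = 0.027). In vector cells with olaparib 4 of 6 were higher and 2 lower (44.1% of genes called, 25.5% higher and 18.5% lower). The interaction of genotype and coculture with DMSO was called for 5 of 6 genes, 1 positive and 4 negative (62.7% of genes called, 30.2% higher and 32.5% lower). A smaller share of cancer cells expressing a gene and less of its RNA per cell cannot be told apart in such bulk libraries.

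Olaparib raised 5 of the 6 tested genes in F133V coculture and lowered none (76.3% of genes called, 39.3% higher and 37% lower). Between these same groups Gm26917 took 0.487% of gene counts with olaparib and 3.56% with DMSO, and the mitochondrial ribosomal RNA mt-Rnr2 0.122% with olaparib and 0.43% with DMSO; their part in the result was not tested. In F133V cells alone it raised Dcn (0.98 ± 0.04, edgeR adjusted p = 3.1e-22) and Thbs2 (0.13 ± 0.02, edgeR adjusted p = 1.3e-05) and lowered Sparc (−0.11 ± 0.03, edgeR adjusted p = 8.3e-04), 3 of 6 (36.2% of genes called, 18.2% higher and 17.9% lower). Sparc was not called there with scaling by library size alone (−0.04, edgeR adjusted p = 0.26), and Thbs2 was at 0.199. The interaction of olaparib and coculture within F133V cells, the olaparib change in coculture minus that alone, was called for 5 of 6 genes, all positive (64.5% of genes called, 32.9% higher and 31.5% lower): 1.1 ± 0.04 for Sparc, 1.19 ± 0.24 for Thbs1, 1.06 ± 0.03 for Thbs2, 0.93 ± 0.10 for Fbn1 and 0.41 ± 0.06 for Dcn. Tnc stood at 0.27 ± 0.27, edgeR adjusted p = 0.39. Vector cells gave 3 higher and 2 lower genes both alone (30.4% of genes called, 15.3% higher and 15.1% lower) and in coculture (23.6% of genes called, 12.6% higher and 10.9% lower), with Thbs1, Thbs2 and Dcn higher and Sparc and Fbn1 lower in each. The interaction of genotype and olaparib was called for 3 of 6 genes alone (24.2% of genes called, 13.3% higher and 10.9% lower) and for 5 of 6 in coculture (67.4% of genes called, 35.4% higher and 32% lower), all positive. In coculture Tnc stood at 0.52 ± 0.25, edgeR adjusted p = 0.059. It passed the threshold, at 0.605 to 0.688 (edgeR adjusted p = 0.015 to 0.041), when F133V coculture DMSO replicate 2, F133V coculture olaparib replicate 1 or 2, or vector coculture DMSO replicate 3 was left out.

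**Figure D4:**
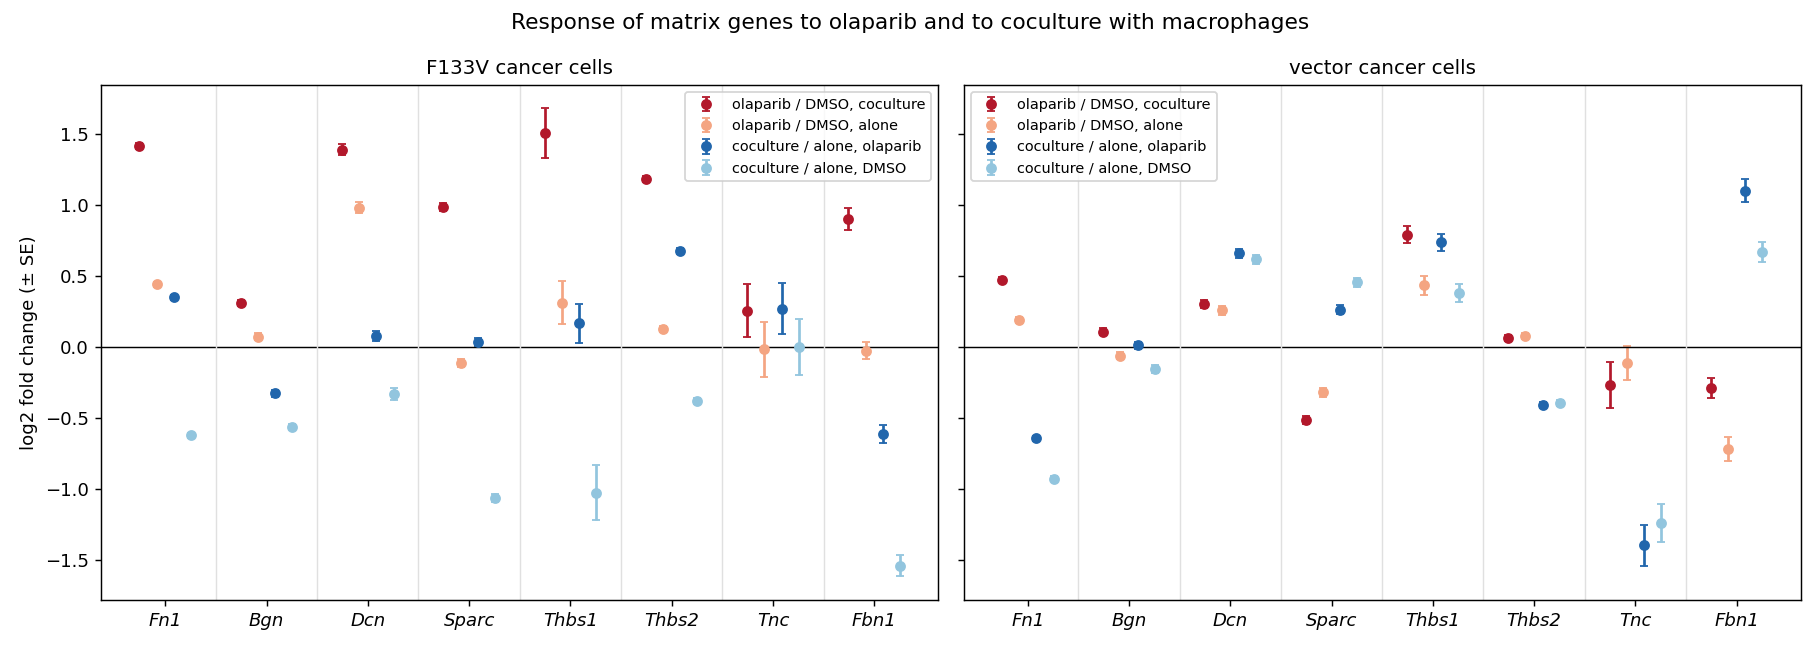
Log2 fold changes (± SE, edgeR) of 8 matrix genes to olaparib (red and orange) and to coculture (blue), in F133V cells on the left and vector cells on the right. In F133V coculture the olaparib changes lie above 0 for all 8 genes (Tnc not called), and the coculture changes with DMSO lie at or below 0; in vector cells both sets scatter around 0.

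Genes that act beside these proteins were read from lists, leaving out the 10 genes themselves. Their counts of calls stand against the shares of all genes given above: 67.7% called for genotype alone with DMSO (33.7% higher, 34% lower) and 76.3% for olaparib in F133V coculture (39.3% higher, 37% lower). Among integrins and other matrix receptors, F133V cells alone with DMSO had 6 higher and 17 lower of 26 tested (median log2 fold change −0.37, against 0.00 for all genes). Itga8, the alpha subunit of a fibronectin-binding integrin, stood at 3.6 ± 0.479 CPM in F133V and 25 ± 0.59 CPM in vector cells (−2.79 ± 0.08, edgeR adjusted p = 3.2e-28). Itga1, of a collagen-binding integrin, stood at 2.83 ± 0.335 CPM in F133V and 9.76 ± 0.831 CPM in vector cells, whereas Itga7, of a laminin-binding one, was higher (1.59 ± 0.09, edgeR adjusted p = 4.1e-18). In F133V coculture olaparib raised 14 and lowered 5 of the 26 (median 0.66, all genes 0.02). Itga8 then stood at 31.7 ± 0.551 CPM with olaparib and 6.89 ± 0.645 CPM with DMSO, and Cd47, a thrombospondin receptor, at 98.5 ± 0.391 CPM with olaparib and 31.3 ± 0.354 CPM with DMSO (1.65 ± 0.03, edgeR adjusted p = 1.4e-33).

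In F133V cells, elastic fibre and fibulin genes followed Fbn1 for coculture with DMSO and for olaparib in coculture, but not in the other contrasts of culture and drug. Coculture with DMSO lowered 9 of 10 tested and raised none (median −0.73, all genes 0.01; 34.8% of all genes lower). Olaparib in coculture raised all 10 (median 1.2, all genes 0.02; 39.3% of all genes higher). Ltbp3, which binds latent TGF-beta, stood at 438 ± 10.7 CPM with olaparib and 198 ± 3.99 CPM with DMSO (1.14 ± 0.02, edgeR adjusted p = 3.2e-33), and Efemp2, a fibulin needed for elastic fibres, at 93.8 ± 2.91 CPM with olaparib and 37.2 ± 3.06 CPM with DMSO. For coculture with olaparib, F133V cells had 4 higher and 2 lower of 10 (median 0.29, 53.2% of all genes called), whereas Fbn1 fell (−0.61 ± 0.06). For olaparib in F133V cells alone, 5 were higher and 2 lower (median 0.13, 36.2% of all genes called), whereas Fbn1 was not called (−0.03 ± 0.06). Between genotypes the list also differed from Fbn1, with 2 higher and 7 lower of 10 in F133V cells alone with DMSO (median −0.82). Fbln5, a fibulin, was higher (2.05 ± 0.09, edgeR adjusted p = 1.2e-21) and Ltbp4 lower (−1.28 ± 0.03, edgeR adjusted p = 1.7e-29). In F133V cells 0 of 9 tested cross-linking genes were higher and 7 lower alone with DMSO, among them the lysyl hydroxylase Plod2 at 29.1 ± 1.11 CPM in F133V and 95.7 ± 2.51 CPM in vector cells. Olaparib raised 7 and lowered 1 of these 9 in F133V coculture, with Pcolce, an enhancer of procollagen processing, at 297 ± 6.91 CPM with olaparib and 92.8 ± 6.58 CPM with DMSO.

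Other matricellular genes were mostly lower in F133V cells, unlike Sparc: 1 higher and 9 lower of 13 alone with DMSO (median −1.0), and 2 higher and 11 lower in coculture with DMSO (median −1.22, all genes −0.06; 79.5% of all genes called, 42% lower). Tgfbi, a secreted integrin ligand induced by TGF-beta, stood at 57 ± 0.86 CPM in F133V and 354 ± 3.03 CPM in vector cells (−2.63 ± 0.03, edgeR adjusted p = 2.3e-43). Tnr, a tenascin known from the nervous system, stood at 0.408 ± 0.0918 CPM in F133V and 16.9 ± 0.351 CPM in vector cells. TGF-beta response genes gave 3 higher and 12 lower of 16 alone with DMSO (median −0.88). Acta2, smooth muscle actin, was among the 3 higher (2.34 ± 0.13, edgeR adjusted p = 3.5e-19), and Id1, a transcription regulator, was lower (−1.84 ± 0.07, edgeR adjusted p = 1.9e-23). Olaparib in F133V coculture raised 9 and lowered 5 of these 16 (median 0.75), with Id2 at 16.3 ± 0.272 CPM with olaparib and 4.1 ± 0.265 CPM with DMSO. Fibrillar collagens gave 2 higher and 4 lower of 8 alone with DMSO (median −0.71), and basement membrane genes 5 higher and 4 lower of 10 (median 0.10), where 67.7% of all genes were called. Lamb2, a laminin chain, was higher (1.55 ± 0.03, edgeR adjusted p = 3.2e-32) and Nid2, a nidogen, lower (−2.2 ± 0.10, edgeR adjusted p = 3.3e-22). The other thrombospondins and tenascins gave 1 higher and 2 lower of 4 (median −0.67), and the other small leucine-rich proteoglycans 1 higher and 3 lower of 4 (median −2.77). Of the proteoglycans Podn met the naming rule, at 4.38 ± 0.242 CPM in F133V and 15.6 ± 0.654 CPM in vector cells.

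Macrophages expressed almost none of the 10 genes. Fn1 led, with 3.78, 3.97 and 4.83 CPM in macrophages from F133V cocultures with olaparib and 2.71, 2.23 and 4.24 CPM in those from vector cocultures with olaparib. With DMSO it stood at 2.84, 3.05 and 3.15 CPM opposite F133V and 2.44, 2.61 and 2.94 CPM opposite vector cells. The other 9 genes averaged at most 0.301 CPM in each group, and 3 of the 10 (Fn1, Bgn and Thbs2) passed the filter. Fn1 was higher opposite F133V than opposite vector cells with olaparib (0.46 ± 0.14, edgeR adjusted p = 9.4e-03), 1 of 3 genes where 35.2% of 14262 genes were called, although the libraries overlapped. It was also higher with olaparib than with DMSO opposite F133V cells (0.48 ± 0.14, edgeR adjusted p = 3.0e-03), again 1 of 3 (57.5% of genes called). The call between partners was lost without olaparib replicate 3 opposite F133V (0.34, edgeR adjusted p = 0.12) or replicate 1 or 2 opposite vector cells (0.376 and 0.275, edgeR adjusted p = 0.065 and 0.15), and the value was 0.766 without replicate 3 opposite vector cells. That for olaparib was lost without olaparib replicate 3 opposite F133V (0.36, edgeR adjusted p = 0.055). With DMSO none of the 3 was called between partners (53.6%), nor for olaparib opposite vector cells (28.4%) or for the interaction (49.3%), where 0 of 3 had an unadjusted p under 0.05 in edgeR and DESeq2 called 0. Olaparib opposite vector cells gave 2 calls without olaparib replicate 2 (Thbs2 at 1.568, edgeR adjusted p = 0.042) and 1 without DMSO replicate 1, and the interaction called Fn1 (0.585, edgeR adjusted p = 0.013) without vector olaparib replicate 3. Opposite F133V cells 2 genes were called without DMSO replicate 2 or olaparib replicate 2. The macrophage Fn1 level was 0.0518% to 0.215% of that in the cancer cells on the other side of the membrane, and whether these reads came from cancer cells was not tested.

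Across the 24 cancer libraries, which are 8 groups of 3 and share the genotype split, the genes whose log2 levels ran most like Fn1 among 8418 were Col16a1 (Pearson r = 0.987), Pde4a (0.985), Pbk (0.985), Hmmr (0.983) and Tgfbi (0.983). Col16a1, a fibril-associated collagen, ranged over group means from 25.0 to 255 CPM. For Bgn they were Ahnak (0.988), Cipc (0.985), Fam50a (0.985), Natd1 (0.982) and Mettl3 (0.979), and Ahnak ranged from 2357 to 4964 CPM. Within the set, Bgn and Sparc ran together (r = 0.926), as did Thbs1 and Dcn (0.94) and Fn1 and Thbs2 (0.907), while Bgn and Thbs1 ran opposite (−0.918). Fbn1 ran with Sparc (0.815) and showed little relation to Dcn (−0.226). These values describe 8 group patterns and carry no test.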

How the data were processed

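Total RNA was extracted with Trizol and sequenced on standard Illumina libraries, per the labels' protocols. The authors deposited raw read counts for 46078 genes per library, with 5 HTSeq summary lines and no normalization. STAR, TopHat, HTSeq, DESeq2 and the build GRCm38 are named in the submitters' processing notes; what each tool did, its version and the strand setting were not given in the sources used here. The line for reads outside genes took 17.1% to 21.5% of all counted reads and, like the others, entered no library size. Gene counts per library had a median of 37771351 in cancer cells and 35333491 in macrophages. Within groups, 36 pairs of libraries were compared and 0 were identical.

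Groups came from the labels; the group entry was used where a title left out the coculture partner, and the macrophages' genotype entry was not used. Each cell type was fitted alone in edgeR 4.0.16 (R 4.3.3, limma 3.58.1) by its quasi-likelihood F test, after TMM scaling and filterByExpr (minimum count 10), over 15962 genes and 16 residual degrees of freedom in cancer cells and 14262 genes and 8 in macrophages. The 21 comparisons comprised 16 pairs of groups and 5 interactions. Calls, the basis for saying that a gene rose or fell, were made at a Benjamini-Hochberg adjusted p under 0.05 over all tested genes. CPM per kilobase used exon lengths of GENCODE M21, and likeness used log2(CPM + 1) over genes averaging 10 CPM or more.

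The members, lists and comparisons were chosen with earlier results of these data known. From each list up to 3 called genes per comparison could be named, ranked by size of change, if the higher group averaged 5 CPM or more; fewer are named, and some genes of the lists are not reported here. Exons of Itga1, Itga7, Itga8, Efemp2, Ltbp3, Plod2, Pcolce, Tnr and Nid2 overlap other genes, so their counts are uncertain. Alternatives were each library left out, only the groups compared, a replicate block, no filter, RLE scaling, library size alone, DESeq2 1.42.0, and the fit with gene length and GC trends removed. Figures were drawn with matplotlib 3.10.9 (Python 3.11.15).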

Additional observations from a re-analysis of the deposited data

Results flagged for a closer look

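Each result below is an interaction that passed edgeR's test (adjusted p under 0.05), so the response of a gene differed between 2 backgrounds; none was weighed further. In cells grown alone, the olaparib response was higher in F133V than in vector cells by 0.21 (log2) for Sparc, 0.69 for Fbn1 and 0.72 for Dcn. In coculture the same difference was 1.5 for Sparc, 0.71 for Thbs1, 1.12 for Thbs2, 1.19 for Fbn1 and 1.09 for Dcn.

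The response to coculture with DMSO was lower in F133V than in vector cells, with differences of −1.52 for Sparc, −1.41 for Thbs1, −2.21 for Fbn1 and −0.95 for Dcn. It was higher by 1.24 for Tnc, which fell in vector cells. Within F133V cells, the olaparib response was larger in coculture than alone by 1.10 for Sparc, 1.19 for Thbs1, 1.06 for Thbs2, 0.93 for Fbn1 and 0.41 for Dcn. The contrasts that include coculture share the F133V coculture libraries with DMSO, so they are not independent of each other. In those libraries Sparc, Thbs1, Thbs2, Fbn1 and Dcn stood lower than in the other 3 F133V groups. The contrast in cells grown alone does not use those libraries but shares others with some of these contrasts.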

How the results depend on the processing

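In cancer cells the counts of called genes held within 1.5 times in all 16 comparisons under every alternative run. In macrophages, where counts rest on 3 scarce genes, leaving out a library gave 0 to 1 called between partners with olaparib, 0 to 2 for olaparib opposite F133V cells, 0 to 2 for olaparib opposite vector cells and 0 to 1 for the interaction. Without the filter on low counts, olaparib called 3 members opposite F133V and 1 opposite vector cells, of 9 tested; the cause was not tested. With library size as the only scaling, the all-gene median moved by −0.252 for genotype and −0.208 for F133V coculture, both with DMSO, and by 0.206 for olaparib in F133V coculture, with 0.204 (olaparib in coculture) and −0.161 (coculture) for the interactions with genotype and 0.133 for that of olaparib and coculture.

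Sparc between genotypes in DMSO coculture reversed to a called −0.078 (adjusted p = 0.014) with library size alone, which the unchanged count of 6 does not show. The same setting gave log2 fold changes of 0.048 for Fbn1 and 0.056 for Tnc for olaparib in F133V cells alone, −0.041 for Sparc and −0.009 for Bgn for coculture with olaparib in F133V and vector cells, and −0.147 for the Thbs2 interaction of genotype and coculture. That interaction was −0.024 with no filter, −0.001 with only the groups compared and −0.018 without vector replicates 1 and 2 of the cells alone with DMSO. Bgn for coculture with olaparib in vector cells was −0.005 with RLE or DESeq2, −0.027 with length and GC trends removed and −0.002 with only the groups compared. Tnc for F133V coculture with DMSO was 0.024 with RLE or DESeq2 and 0.032 with trends removed, and Sparc for F133V coculture with olaparib was −0.006 with trends removed. Leaving out a library gave −0.046 to 0.012 for Fbn1 and −0.181 to 0.109 for Tnc (olaparib, F133V alone), −0.176 to 0.002 for Tnc (olaparib, vector alone), −0.151 to 0.12 for Tnc (F133V coculture, DMSO) and −0.071 to 0.218 for the Tnc interaction of genotype and olaparib alone. In macrophages it gave −0.881 to 0.166 for Thbs2 between partners with olaparib, −0.321 to 0.726 for Thbs2 and −0.589 to 0.349 for Bgn (olaparib opposite F133V) and −0.103 to 0.388 for Fn1 (olaparib opposite vector). The cause was not tested.

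Calls also changed with library size alone for olaparib, lost for Thbs2 in vector cells alone (0.053) and gained for Thbs1 in F133V cells alone (0.386), for the Tnc interaction with genotype in coculture (0.727; 0.562 with no filter) and for that of Thbs2 alone (0.146). With no filter and with length and GC trends removed, Thbs2 lost its call for olaparib in vector coculture (0.062 and 0.047) and Dcn gained one for F133V coculture with olaparib (0.086 and 0.165).

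Same-numbered replicates did not deviate together in cancer cells (r from −0.047 to 0.058 over 84 pairs), where 8 of 24 libraries correlated best with their own number. In macrophages r ran from −0.017 to 0.036 over 18 pairs, and 7 of 12 libraries correlated best with their own number. The correlations were small in both cell types, so the numbers were not used as pairs. A replicate block left all 21 counts as reported, 6 for genotype alone with DMSO, for example. Depth limits Thbs1 and Tnc in F133V cells and every member in macrophages other than Fn1.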

Other observations

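Some basement membrane and matricellular genes outside the set, named by size of change, also differed when F133V cells faced macrophages. With olaparib present, coculture raised 8 and lowered 1 of 10 tested basement membrane genes in F133V cells (median 0.35, against −0.01 for all genes; 53.2% of all genes called, 26.7% higher). With DMSO it raised 5 and lowered 3 (median 0.09), a count near the background of 70.3% of all genes called. Nid1, a nidogen that links laminin to collagen networks, stood at 2342 ± 29.9 CPM in F133V coculture with DMSO and 1604 ± 2.01 CPM alone (log2 fold change 0.55 ± 0.02, edgeR adjusted p = 6.1e-25). Gm48682, on the other strand, covers 2.06% of the exon bases of Nid1.

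Spp1, osteopontin, a secreted integrin ligand, rose where Sparc and Fbn1 fell: it stood at 1319 ± 23.3 CPM in F133V coculture with DMSO and 601 ± 7.15 CPM alone (1.13 ± 0.02, edgeR adjusted p = 1.7e-34). Another gene on the same strand covers 18.75% of its exon bases. Fstl1, a secreted relative of Sparc, stood at 11 ± 0.646 CPM in F133V coculture with DMSO and 33 ± 0.949 CPM alone (−1.58 ± 0.05, edgeR adjusted p = 5.6e-26), and Wisp1, a matricellular CCN protein, at 25 ± 1.43 and 76.1 ± 2.5 CPM (−1.61 ± 0.04, edgeR adjusted p = 5.9e-30). In vector cells with DMSO coculture lowered Fstl1 as well (−0.92 ± 0.04, edgeR adjusted p = 5.3e-22), while Cd47 rose in vector (0.67 ± 0.03, edgeR adjusted p = 6.4e-22) and fell in F133V coculture (−1.15 ± 0.03, edgeR adjusted p = 1.6e-27).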
